A study of Saccharomyces cerevisiae with 12 samples.

Results

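The comparison described here set 3 arrays of a yeast ctr1 deletion strain over-expressing a truncated CTR1 (Dctr1_CTR1D300, here CTR1D300) against 3 arrays of the same deletion strain with the corresponding empty vector (Dctr1_Con). These 6 arrays were chosen by sample title from the 12 single-colour Agilent arrays (Cy3) of the series, and all gene probes were used. Both groups were Saccharomyces cerevisiae BY4741, a laboratory strain, with CTR1 deleted, and both were started at an OD600 of 0.6 in synthetic medium lacking leucine (SC-leu). The medium held 0.02 mM CuCl2, which the submitters call excess copper, and growth lasted 7 h (30 °C, 180 rpm shaking). The other 6 arrays were of BY4741 with an intact CTR1 gene and either an empty vector (WT_Con) or a construct over-expressing full-length CTR1 (WT_CTR1), grown in the same way, and they enter here as reference levels and as the contrast for the effect of the construct. The labels name the construct CTR1 delta-300 and describe 3 independent experiments. They do not say which residues are missing, which promoter or vector was used, or whether each strain was 1 clone.

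Ctr1 is the high-affinity copper transporter of the yeast plasma membrane. It takes up reduced copper, which metalloreductases such as Fre1 provide, and its gene is switched on by the copper-sensing activator Mac1 when copper is scarce. When copper is plentiful, the activator Cup2 switches on metallothionein genes that bind the metal, and the transporter itself is taken down from the membrane, a step that depends on its cytosolic tail. Copper that enters the cell is handed by the chaperones Atx1, Ccs1 and Cox17 to the secretory pathway, to superoxide dismutase and to cytochrome oxidase, and the secretory branch loads the iron oxidase Fet3, which ties copper to iron uptake.

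Signals are given as log2 values relative to the array's 75th percentile, averaged over the 2 spots of a probe. Changes are CTR1D300 minus Dctr1_Con on the log2 scale ± SE, with n = 3 arrays per group throughout, and a gene is called changed at a Benjamini-Hochberg adjusted p under 0.05 in a limma fit over 6127 genes. In all, 3341 genes were called, which is 54.5% of those tested. Of these, 1468 were higher (24%) and 1873 lower (30.6%), so a list of genes was read against those shares. Only 499 genes (8.14%) were both called and changed by at least 2-fold, 210 of them higher (3.43%) and 289 lower (4.72%). The arrays of the groups did not overlap for 62.8% of genes. The median over all genes was -0.05. Across genes, r between arrays of 1 group lay between 0.992 and 0.998, and between 96.6% and 97.9% of probes on these 6 arrays were well above background.

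On every slide the empty-vector array lay in the first column and the construct array in the second, so slide column and construct cannot be told apart, and each change was also read from the lower-numbered and the higher-numbered spot separately. Each spot alone called 2339 genes in the same direction (38.2%), 984 of them higher (16.1%) and 1355 lower (22.1%). The changes read from the 2 spots differed by over 0.5 for 784 genes and by over 1 for 137. An example is RPL41A, a ribosomal protein gene with a near-identical copy, RPL41B: its lower-numbered spot gave 4.63 and its higher-numbered spot 0.14, while for RPL41B they gave 3.91 and -0.12. RFC4, a clamp loader subunit gene, was at 2.13 with 1 spot and at 0.12 with the other. The genes described below as changed were called with each spot alone unless it is said otherwise. Replicate 1 of each group was on slide 1, scanned on an earlier day, and replicates 2 and 3 were on slide 3. All 3341 called genes moved in the same direction in all 3 replicate pairs. Since the calls rest on those same arrays, this is no separate support for them. Over all genes, 1073 were called higher and 1523 lower without slide 1. With replicate number as a block, 1798 were called higher and 2280 lower. List counts given below for those fits are to be read against these totals.

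**Figure D1:**
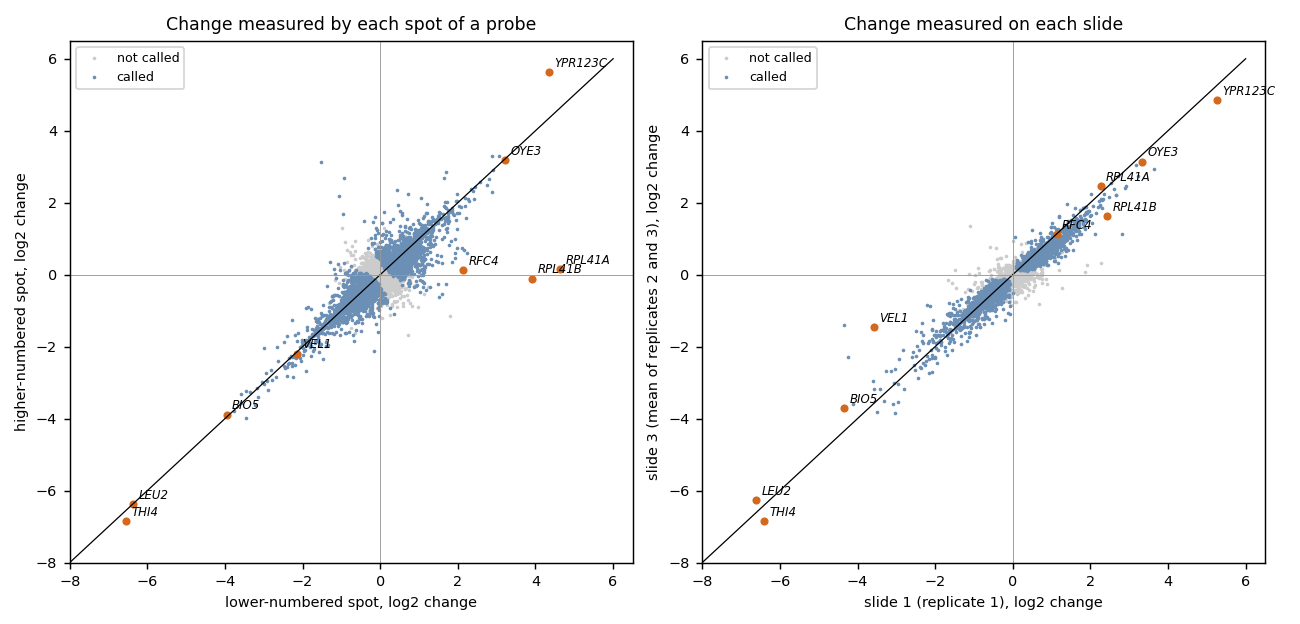
Each point is 1 of 6127 genes, and both axes are log2 changes (CTR1D300 minus Dctr1_Con). The left panel sets the lower-numbered against the higher-numbered spot of each probe, where THI4 and BIO5 lie on the diagonal and RPL41A, RPL41B and RFC4 lie far from it. The right panel sets slide 1 against the mean of the 2 replicate pairs on slide 3, where VEL1 is much lower on slide 1.

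The strain and vector markers were read first. The CTR1 probe was not well above background on any of the 6 arrays (-10.14, -9.85 and -9.96 in Dctr1_Con and -8.60, -9.33 and -9.13 in CTR1D300), so the probe gave no reading of the truncated construct and no fold is given for it. In WT_Con the same probe read -2.50 ± 0.03 (SD, n = 3). YPR123C lies across CTR1 as an overlapping open reading frame. It was above background on 1 of the 3 Dctr1_Con arrays and on all 3 CTR1D300 arrays, at -10.00, -10.43 and -9.05 against -4.73, -5.31 and -4.50. With 2 of the 3 Dctr1_Con arrays at background, the fitted difference of 4.98 ± 0.30 (adjusted p = 4.62e-07) is not a measured size. YPR123C is counted among the largest rises by this fitted value, but its place among them is not read. The CTR1D300 level lay below the WT_Con level of -3.36. HIS3, URA3 and MET17, which BY4741 lacks, were at background on all 6 arrays.

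LEU2, which makes isopropylmalate dehydrogenase of leucine synthesis and is also deleted from the BY4741 chromosome, was read at 5.80, 5.46 and 5.50 in Dctr1_Con and at -0.80, -1.43 and -0.14 in CTR1D300. The groups lay far apart, at a change of -6.38 ± 0.26 (adjusted p = 2.65e-08), and CTR1D300 replicates 2 and 3 differed from each other by more than any pair of Dctr1_Con arrays. Both spots gave the same value, -6.37 and -6.38. All cells grew without leucine in the medium. The LEU2 level in CTR1D300 was also below that in WT_Con (5.86) and WT_CTR1 (4.35). Whether the vectors carry different LEU2 copies was not tested, and LEU2 is left out of the amino acid genes below.

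Genes for making thiamine had the largest median change of the 65 gene lists. Thiamine pyrophosphate, the active form of vitamin B1, is built by joining a thiazole, made by Thi4, to a pyrimidine, made by the Thi5 family from vitamin B6 and histidine. All 14 genes of the thiamine synthesis list, which also holds SNZ2, SNZ3, SNO2 and SNO3, fell, 13 of them with each spot alone, with a median of -2.13 against -0.05 for all genes. THI4 read 4.64, 4.54 and 4.54 in Dctr1_Con and -1.76, -2.30 and -2.33 in CTR1D300. The groups were separated by far more than their own spread, and the change of -6.70 ± 0.18 (adjusted p = 1.45e-09) is a 104-fold fall, at -6.56 and -6.85 with the 2 spots.

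The pyrimidine genes THI5, THI11, THI12 and THI13 fell by similar amounts, between -3.34 ± 0.15 for THI12 and -3.72 ± 0.13 for THI11. These 4 genes are near-identical copies, so their probes may share signal and they are uncertain as single genes. THI5 stood at -0.47, -0.26 and -0.26 in Dctr1_Con and at -3.56, -3.84 and -3.87 in CTR1D300, with no overlap. Further along the pathway, the falls were smaller. THI20 and THI21, the kinases of the pyrimidine, changed by -2.54 ± 0.15 and -1.77 ± 0.08, and THI6, which joins the rings, by -1.86 ± 0.07. THI80, which adds the pyrophosphate, changed by -0.50 ± 0.11 (adjusted p = 0.0029).

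Of 11 genes of thiamine transport and regulation, 9 fell and 2 rose, all with each spot alone. THI2, an activator of the pathway, read -0.58, -0.61 and -0.63 in Dctr1_Con and -3.73, -3.25 and -3.35 in CTR1D300 (-2.84 ± 0.15, adjusted p = 1.69e-07). THI7, the plasma membrane thiamine transporter, fell by 1.88 (SE 0.21), with replicate 1 of CTR1D300 at 0.04 and the others at 0.96 and 0.92. THI73, a transporter-like gene of the same regulon (-3.77 ± 0.32), PET18 (-3.02 ± 0.07), PDC5, a thiamine-dependent pyruvate decarboxylase (-2.52 ± 0.13), and PHO3, the phosphatase that frees thiamine from its phosphates outside the cell (-1.67 ± 0.13), fell as well. The regulators THI3 (-0.49 ± 0.07) and PDC2 (0.33 ± 0.07) moved little, and in opposite directions. THI72, a relative of THI7, rose by 0.69 ± 0.07. The call of PDC2 was lost without slide 1 (0.26, adjusted p = 0.0648).

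**Figure D2:**
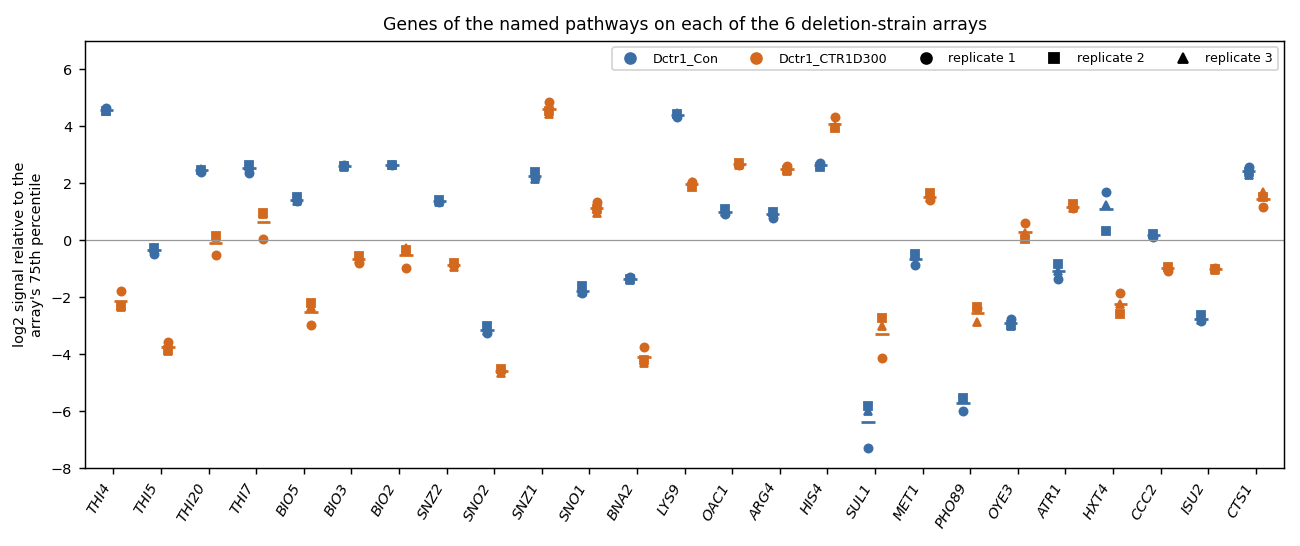
The vertical axis is the log2 signal relative to the array's 75th percentile. Blue symbols are the 3 Dctr1_Con arrays, orange symbols the 3 CTR1D300 arrays, marker shapes the replicate numbers and short lines the group means. The groups overlap in none of the 25 genes, which were picked from the called genes. Over all genes 62.8% do not overlap. THI4 goes from a mean of 4.57 to -2.13.

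Vitamin B6 genes split by family member. The vitamin B6 list held 6 genes, of which 5 were higher and none lower, and its other family members were counted with thiamine. Snz and Sno proteins together make pyridoxal phosphate, and yeast has 3 pairs. SNZ1 stood at 2.18, 2.41 and 2.16 in Dctr1_Con and at 4.85, 4.55 and 4.44 in CTR1D300 (2.36 ± 0.35, adjusted p = 0.000218). SNO1 stood at -1.87, -1.60 and -1.82 against 1.35, 1.1 and 0.96 (2.90 ± 0.40, adjusted p = 0.000144), and neither gene overlapped between groups. SNZ2 went the other way, from 1.34, 1.43 and 1.35 to -0.87, -0.79 and -0.95 (-2.24 ± 0.07, adjusted p = 4.29e-09). SNZ3 (-2.02 ± 0.07), SNO2 (-1.44 ± 0.07) and SNO3 (-1.73 ± 0.08) also fell, with the caution that SNZ2 and SNZ3, and SNO2 and SNO3, are close copies of each other.

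The falling members lie beside thiamine genes. In the RefSeq gene order, SNO2, SNZ2 and THI12 follow one another, as do SNO3, SNZ3 and THI5, while SNO1 and SNZ1 neighbour each other and no thiamine gene. DDI2, on the other side of SNO2, rose by 0.92 and DDI3, beside SNO3, by 0.73. THI11 lies between AAD10, which fell by 2.42, and HXT16, which fell by 1.28. The other copies were not flanked alike. Averaged over both spots, THI13 had AAD4 at 1.38 on one side and HXT15, which fell like HXT16, at -0.74 on the other. AAD14 beside THI12 also fell, at -0.63, and AGP3 beside THI5 was at 0.03. All of these flanking genes were chosen after their values were seen. Of the other vitamin B6 genes, BUD16, the pyridoxal kinase gene (0.88 ± 0.09), and TPN1, the pyridoxine transporter gene (0.68 ± 0.10), rose. PDX3, the oxidase of the pathway, was at 0.44 ± 0.12 (adjusted p = 0.0086), was not called with the higher-numbered spot, and without slide 1 was at 0.39 (adjusted p = 0.0609).

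Of 9 biotin genes 7 fell and 2 rose. Biotin is the cofactor of carboxylases, and yeast completes its synthesis from imported precursors. BIO5, the precursor transporter gene, read 1.37, 1.51 and 1.39 in Dctr1_Con and -2.99, -2.19 and -2.34 in CTR1D300, a 15.2-fold fall (-3.92 ± 0.18, adjusted p = 6.24e-08). BIO3 (-3.27 ± 0.07), BIO4 (-3.05 ± 0.14) and BIO2 (-3.16 ± 0.15), the genes of the last 3 enzymatic steps, fell by nearly the same amount. None of the 4 overlapped between groups, as held for 62.8% of all genes. BIO5, BIO4 and BIO3 are consecutive genes. HOL1 beside BIO5 (-0.12, adjusted p = 0.239) and MNT4 beside BIO3 (0.01, adjusted p = 0.854), both chosen after their values were seen, were not called. The biotin transporter gene VHT1 fell by 1.93 (SE 0.13) and BPL1, which attaches biotin to its carriers, by 1.1. The carriers themselves differed. PYC1 and PYC2, the pyruvate carboxylases, rose by 0.66 ± 0.08 and 0.53 ± 0.08, while ACC1, acetyl-CoA carboxylase, was at -0.53 and was called with only 1 spot.

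Genes of other cofactors were mixed. In NAD synthesis from tryptophan, 9 of 15 genes fell and 2 rose (6 and 2 with each spot alone). BNA2, the first enzyme of that route, read -1.29, -1.37 and -1.41 in Dctr1_Con and -3.74, -4.20 and -4.31 in CTR1D300 (-2.73 ± 0.13, adjusted p = 7.73e-08). BNA5 (-1.15 ± 0.09), BNA4 (-0.85 ± 0.12) and TNA1, the nicotinic acid permease gene (-1.05 ± 0.08), fell, while BNA1 (0.54 ± 0.09) and NRK1, the nicotinamide riboside kinase gene (1.22 ± 0.10), rose. In the list of pantothenate, folate and riboflavin genes, 14 of 23 rose and 3 fell, with a median of 0.36. FOL2, GTP cyclohydrolase of folate synthesis, rose from 0.40, 0.51 and 0.45 to 2.15, 2.11 and 1.99 (1.63 ± 0.08, adjusted p = 1.52e-07), and RIB5 (1.53 ± 0.13) and RIB3 (1.13 ± 0.10) of riboflavin synthesis rose too. FAD1, which makes FAD from riboflavin phosphate, fell by 0.61 (SE 0.07).

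Most genes of amino acid synthesis rose. In yeast, many of these genes are activated together by Gcn4. In the leucine, isoleucine and valine list 13 of 14 members rose, all with each spot alone, with a median of 1.12. OAC1, a mitochondrial carrier used in leucine synthesis, rose from 0.92, 1.11 and 0.98 to 2.64, 2.70 and 2.65 (1.66 ± 0.13, adjusted p = 2.27e-06). LEU9 (1.5 ± 0.17), BAT1 (1.48 ± 0.12), ILV3 (1.24 ± 0.17) and LEU1 (1.24 ± 0.24) rose, and GDH1, which supplies glutamate, was at -0.13 ± 0.14 (adjusted p = 0.443).

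All 10 genes of arginine and ornithine synthesis rose, 9 with each spot alone, with a median of 1.46. ORT1, the mitochondrial ornithine carrier, was highest at 1.85 ± 0.07, and ARG4 rose from 0.79, 1.01 and 0.99 to 2.61, 2.48 and 2.44 (1.58 ± 0.08, adjusted p = 1.42e-07). All 6 histidine genes rose, led by HIS4 (1.45 ± 0.10) and HIS1 (1.43 ± 0.13). Of 13 aromatic genes, 12 rose, with ARO3 at 1.43 ± 0.09 and TRP4 at 1.38 ± 0.07, and ARO7, chorismate mutase, was at 0.12 ± 0.13 (adjusted p = 0.424). In serine, glycine, threonine and cysteine synthesis 15 of 20 rose, with GCV1 and GCV3 of the glycine cleavage system at 1.58 ± 0.17 and 1.23 ± 0.16 and HOM3, aspartate kinase, at 1.29 ± 0.06.

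Not all amino acid lists rose. Of 17 glutamate and glutamine genes 6 were higher (35.3%) and 4 lower (23.5%), with a median of 0.04. In lysine synthesis 2 of 10 genes rose (20%) and 4 fell (40%), with a median of -0.16. The shares over all genes were 24% higher and 30.6% lower. LYS9, saccharopine dehydrogenase of the next to last step, read 4.31, 4.43 and 4.48 in Dctr1_Con and 2.04, 1.85 and 2.04 in CTR1D300. The LYS9 fall of 2.43 on the log2 scale (SE 0.09, adjusted p = 1.2e-08) was the largest of the 4, with LYS12 at -0.58 ± 0.13 (called with 1 spot only), LYS1, the last step, at -0.50 ± 0.17 and LYS4 at -0.47 ± 0.16. Among the genes not called, LYS2 was at 0.01 ± 0.23 (adjusted p = 0.985) and LYS21 at -0.03 ± 0.11 (adjusted p = 0.84). LYS5, which activates Lys2, and ARO8, a shared aminotransferase, rose by 0.95 ± 0.13 and 0.55 ± 0.07. The call of LYS4 was lost without slide 1 (-0.57, adjusted p = 0.0841).

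Of 37 genes of sulfate assimilation and methionine, 26 rose and 3 fell, with a median of 0.76. SUL1, a high-affinity sulfate permease, was at -7.30, -5.81 and -6.00 in Dctr1_Con and at -4.14, -2.73 and -2.99 in CTR1D300. Replicate 1 was the lowest of both groups by over 1 log2 unit, yet the groups did not overlap (3.08 ± 0.49, adjusted p = 0.000379). The second permease gene, SUL2, rose from -2.46, -2.18 and -2.34 to -0.57, -0.35 and -0.40 (1.89 ± 0.12, adjusted p = 7.47e-07). MET1, which makes the siroheme of sulfite reductase, was at 2.16 ± 0.14, STR3, cystathionine beta-lyase, at 2.03 ± 0.13, and MET28, a regulator of the pathway, at 1.87 ± 0.14. SAH1, which clears S-adenosylhomocysteine, fell by 0.47 (SE 0.10). CYS3, which makes cysteine, was at 0.02 and was not called.

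Transporters of nitrogen compounds moved apart. Of 22 amino acid permease genes 9 rose (40.9%) and 5 fell (22.7%), against 24% and 30.6% of all genes. DIP5, for acidic amino acids, rose from -1.58, -1.64 and -1.62 to 0.02, 0.17 and 0.28 (1.77 ± 0.23, adjusted p = 0.000107), and BAP2, for branched-chain amino acids, by 1.46 ± 0.11. The general permease gene GAP1 fell from 0.26, 0.42 and 0.26 to -1.09, -0.94 and -1.05 (-1.34 ± 0.14, adjusted p = 1.75e-05), as did the proline permease gene PUT4 (-1.67 ± 0.23) and ALP1, an arginine transporter (-1.58 ± 0.10). GAP1, PUT4 and the allantoin and ammonium genes are known for use on poor nitrogen sources.

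In the list of allantoin, urea and ammonium genes 10 of 20 fell and 7 rose, 8 and 4 with each spot alone. DAL80, a repressor of nitrogen genes that is itself induced on poor nitrogen sources (-1.84 ± 0.14), DAL1, allantoinase (-1.76 ± 0.16), DUR3, the urea transporter (-1.08 ± 0.12), and MEP3, an ammonium permease (-0.95 ± 0.08), fell. The activators GLN3 (0.83 ± 0.08), DAL82 (0.66 ± 0.06) and GAT1 (0.46 ± 0.11) rose. ATO3, an ammonium exporter of the plasma membrane that is outside the list, was among the largest rises, from -0.44, -0.32 and -0.13 to 2.16, 2.08 and 2.21 (2.44 ± 0.12, adjusted p = 1.28e-07).

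Of 19 purine genes 7 rose (36.8%) and 5 fell (26.3%), against 24% and 30.6% of all genes. Their median of 0.02 was 0.29 with the lower-numbered and -0.16 with the higher-numbered spot. ADE8 rose by 1.35 ± 0.12 and BAS1, an activator of purine and histidine genes, by 1.29 ± 0.23, while IMD2, IMP dehydrogenase of GTP synthesis, fell by 1.36 (SE 0.09) and ADE2 by 0.65 (SE 0.09). Of 14 pyrimidine genes 9 rose and 1 fell. FUR4, the uracil permease gene, was at 1.41 ± 0.17 and URA2, which catalyses the first steps, at 0.84 ± 0.11.

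**Figure D3:**
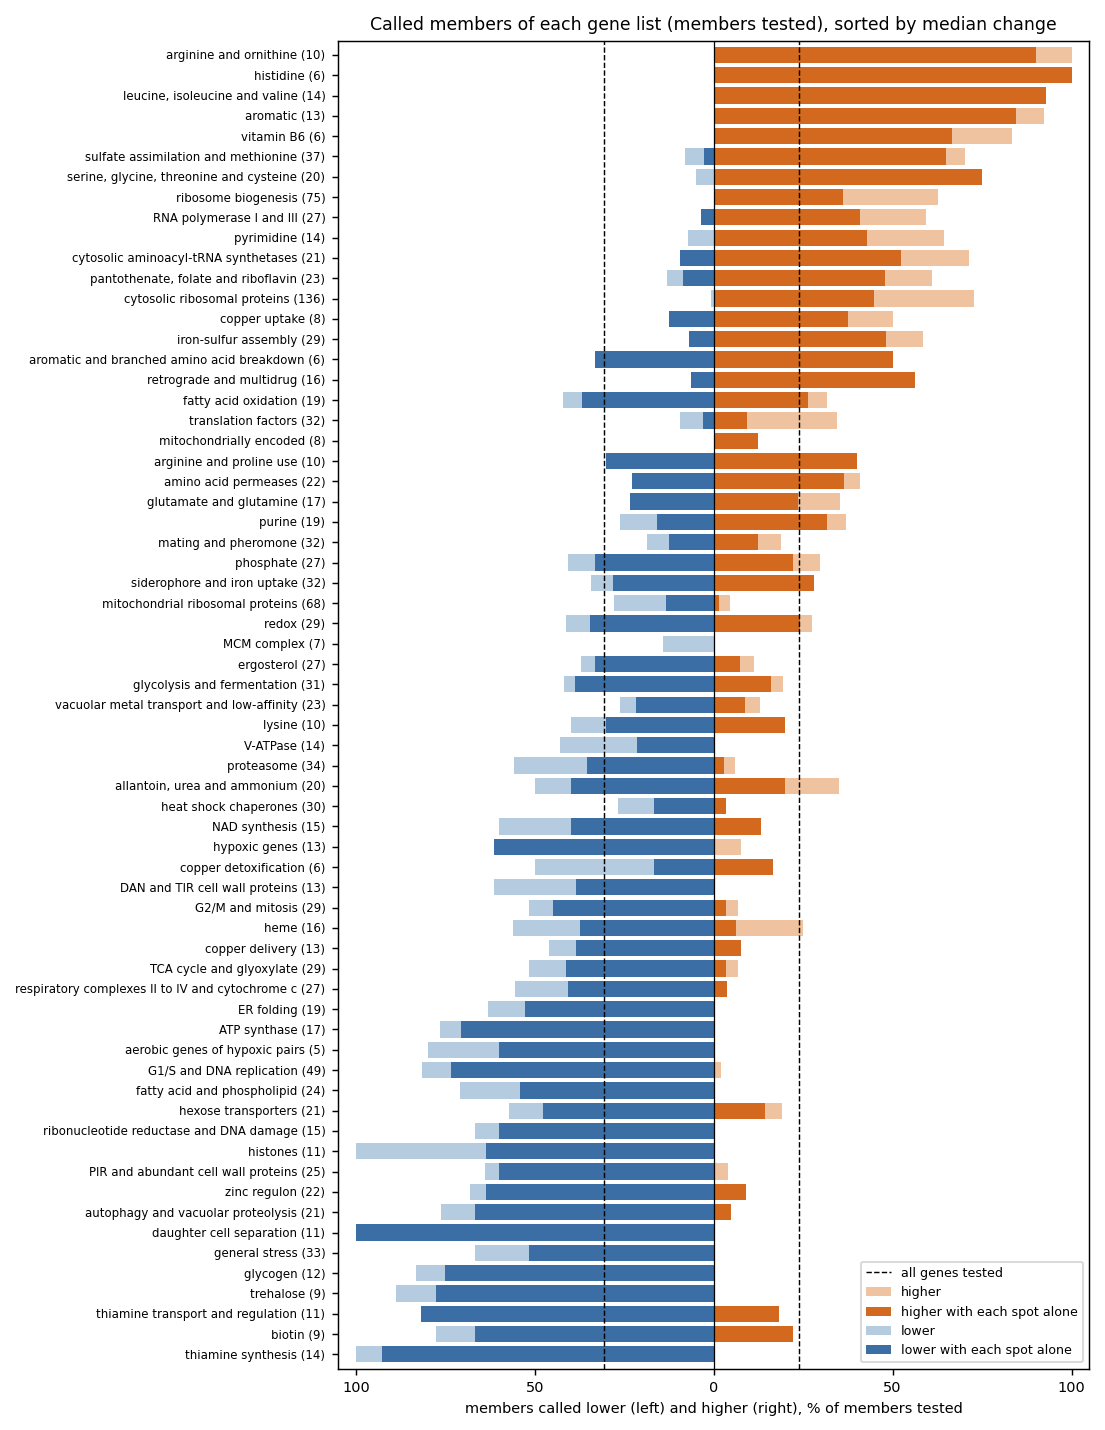
Bars give, for each of 65 gene lists, the percentage of tested members called lower (left, blue) and higher (right, orange), with the part called with each spot alone in the darker shade and the number of members tested in parentheses. Dashed lines mark the shares over all genes (30.6% lower, 24% higher). Lists are sorted by median change, with amino acid synthesis at the top and biotin and thiamine synthesis at the bottom.

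The copper lists had medians of 0.33 for uptake, -0.30 for detoxification and -0.38 for delivery. Of 8 copper uptake genes 4 were higher and 1 lower, and 1 of the 4 was the CTR1 probe, which was at background. IRC7, a beta-lyase gene placed in this list as a copper-responsive gene, rose from -0.36, -0.33 and -0.32 to 1.02, 0.79 and 0.95 (1.26 ± 0.09, adjusted p = 1.87e-06), REE1, named for its role in regulating enolase, by 0.95 ± 0.10 and MAC1 by 0.43 ± 0.06 (adjusted p = 0.000147). CTR3, the second high-affinity transporter gene, read -4.26, -4.14 and -4.22 against -4.50, -4.48 and -4.55, with no overlap but a fall of only 0.31 (SE 0.08, adjusted p = 0.0106). The reductase genes FRE1 (0.08 ± 0.15, adjusted p = 0.683) and FRE7 (0.24 ± 0.12, adjusted p = 0.1) and the vacuolar transporter gene CTR2 (-0.16 ± 0.10, adjusted p = 0.172) were not called.

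In copper detoxification, the metallothionein genes were near the top of the scale in both groups. CUP1-1 read 5.46, 5.20 and 5.22 in Dctr1_Con and 5.16, 4.75 and 4.62 in CTR1D300, at -0.45 ± 0.14 (adjusted p = 0.0171), and its copy CUP1-2 was at -0.23 ± 0.14 (adjusted p = 0.179, and 0.0226 when replicate number was a block). These copies cannot be told apart by probe, and CUP1-1 was not called with the lower-numbered spot. CRS5, a second metallothionein, fell by 0.36 (SE 0.08, adjusted p = 0.00291), and without slide 1 it was at -0.34 with adjusted p = 0.0513. CUP2 was at -0.22 ± 0.13 (adjusted p = 0.184, and 0.0172 in the blocked fit). SOD1 was at -0.43 ± 0.13 (adjusted p = 0.019) but at -0.06 with its lower-numbered spot, and HAA1 rose by 0.55 ± 0.11 (adjusted p = 0.0015). In all, 3 of 6 were lower and 1 higher, and 5 were lower with the replicate block. The block also raised the lower calls over all genes, from 1873 to 2280.

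Among 13 genes of copper delivery, 6 were lower and 1 higher, and with the replicate block 11 were lower. Lower calls over all genes went from 1873 to 2280 with the block. CCC2, which pumps copper into the Golgi, went from 0.10, 0.23 and 0.20 to -1.08, -0.93 and -0.94 (-1.16 ± 0.08, adjusted p = 1.14e-06), and the high-affinity iron uptake genes FTR1 (-1.13 ± 0.08) and FET3 (-0.90 ± 0.07) fell with it. All 3 are targets of the iron regulator Aft1. CCS1, the chaperone for superoxide dismutase, rose by 0.68 ± 0.07 (adjusted p = 2.39e-05), the only gene of this list to do so. ATX1 was at -0.29 ± 0.12 (adjusted p = 0.0642, and 0.0248 with the block) and GEF1 at -0.32 ± 0.09 (adjusted p = 0.012, with 1 spot only).

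The mitochondrial branch moved by small amounts. COX17 fell by 0.43 (SE 0.08, adjusted p = 0.00118) and COX11 by 0.44 (SE 0.11, adjusted p = 0.00651), the latter without a call when slide 1 was left out (-0.32, adjusted p = 0.116). Not called without the block were SCO1 (-0.38 ± 0.17, adjusted p = 0.0752, and 0.00178 with the block), SCO2 (-0.29 ± 0.11, adjusted p = 0.0531, and 0.00203), COX23 (-0.37 ± 0.15, adjusted p = 0.0558, and 0.0218) and PIC2 (-0.64 ± 0.42, adjusted p = 0.216, and 0.00685). PIC2 had the widest spread, from 0.96 in replicate 1 to -0.47 in replicate 2 of Dctr1_Con. COX19 was at 0.13 ± 0.16 (adjusted p = 0.507).

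Of 32 genes of the siderophore and iron uptake list 11 fell and 9 rose, at 34.4% and 28.1% near the shares over all genes. The list also holds genes outside uptake, such as TIS11, PCL5, ISU1 and ISU2, so these shares are not those of uptake genes alone. TIS11, which degrades mRNAs when iron is scarce, fell from 0.23, 0.03 and 0.13 to -2.81, -2.61 and -2.50 (-2.77 ± 0.17, adjusted p = 4.66e-07), and FIT2, a cell wall mannoprotein for siderophores (-1.99 ± 0.26), and the siderophore transporter genes ARN1 (-1.48 ± 0.13) and ARN2 (-1.22 ± 0.13) fell. ISU2, a scaffold on which iron-sulfur clusters are built, rose from -2.85, -2.62 and -2.80 to -0.99, -1.02 and -1.03 (1.74 ± 0.08, adjusted p = 7.83e-08), its relative ISU1 by 1.05 ± 0.13, PCL5, a cyclin that promotes the breakdown of Gcn4, by 2.01 ± 0.11, and CCC1, which stores iron in the vacuole, by 0.63 ± 0.06.

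In the list of iron-sulfur assembly 17 of 29 genes rose and 2 fell, with a median of 0.30. The cytosolic branch took part, with DRE2 (1.35 ± 0.07), CIA2 (1.26 ± 0.18), TAH18 (1.1 ± 0.14), NAR1 (1.05) and CFD1 (0.94). The 2 that fell were ACO1, aconitase (-0.61 ± 0.15, and adjusted p = 0.0505 once slide 1 was left out, at -0.57), and ARH1 (-0.23 ± 0.06, likewise adjusted p = 0.0615, at -0.20). Of 16 heme genes 9 fell and 4 rose, and 5 fell without slide 1. COX15 (-0.89 ± 0.14) and HEM15, ferrochelatase (-0.63 ± 0.09), fell while HEM1, the first enzyme, rose by 0.32 ± 0.08 (adjusted p = 0.00682).

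Of 22 zinc genes 15 were lower, which is 68.2% against 30.6% of all genes, and 2 were higher. ZAP1, the zinc-sensing activator, went from -1.03, -0.83 and -0.90 to -2.16, -1.72 and -1.74 (-0.95 ± 0.11, adjusted p = 4.81e-05), and the vacuolar exporter gene ZRT3 (-1.13 ± 0.14) and IZH4 (-1.28 ± 0.17) fell. VEL1 and ADH4, an alcohol dehydrogenase, had a replicate apart: VEL1 read -4.99 in replicate 1 of CTR1D300 and -2.53 and -2.16 in the others, and ADH4 read -1.48, -0.19 and -0.15. The main importer gene, ZRT1, was at -0.10 ± 0.11 (adjusted p = 0.466). VEL1 was at -2.17 ± 0.56 and ADH4 at -1.31 ± 0.27. KTI12 (0.86 ± 0.15) and ATG41 (0.84 ± 0.14) were the 2 that rose.

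Phosphate genes did not move as a group. Of 27, 8 were higher (29.6%) and 11 lower (40.7%), against 24% and 30.6% of all genes. Without slide 1, 4 were higher. PHO89, the sodium-phosphate cotransporter gene, read -6.00, -5.55 and -5.57 in Dctr1_Con and -2.37, -2.35 and -2.88 in CTR1D300, a 9.01-fold rise (3.17 ± 0.31, adjusted p = 1.29e-05). PHO89 and SUL1 lie on either side of PCA1, a P-type metal pump gene, which was at -0.07 (adjusted p = 0.439). PHO84, the main high-affinity transporter gene, overlapped between groups (-1.82, -0.27 and -0.63 against 0.46, 0.29 and -0.55) and was at 0.98 ± 0.45 (adjusted p = 0.0884, and 0.0469 with the block). SPL2, which acts on the low-affinity transporters, was at 1.69 ± 0.39, and without slide 1 at 1.14 (adjusted p = 0.0741). PHO12 (-1.1 ± 0.10) and PHO5 (-0.42 ± 0.09), secreted phosphatase genes, fell.

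Of 21 cytosolic aminoacyl-tRNA synthetase genes 15 rose and 2 fell, with VAS1, for valine, at 1.19 ± 0.09 and HTS1, for histidine, at 0.78 ± 0.09, while GUS1, for glutamate, fell by 0.45 (SE 0.07) and ARC1, its partner, by 0.56 (SE 0.06). Of 75 ribosome biogenesis genes 47 rose and none fell, but only 20 rose without slide 1 and 70 with the replicate block. Higher calls over all genes shifted the same way, from 1468 to 1073 without slide 1 and to 1798 with the block. CBF5, the pseudouridine synthase of rRNA, was at 0.90 ± 0.15 and UTP23 at 1.04 ± 0.24. Of 27 genes of RNA polymerases I and III 16 rose and 1 fell, and 9 rose without slide 1. RPA14 rose by 0.81 ± 0.08 and RPC34 by 0.80 ± 0.13, while MAF1, the repressor of polymerase III, fell by 0.54 (SE 0.11).

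Of 136 cytosolic ribosomal protein genes 99 rose and 1 fell, but 61 rose with each spot alone and 51 without slide 1, and their median was only 0.35. RPS9A rose from 0.08, 0.33 and 0.23 to 1.38, 1.49 and 1.44 (1.22 ± 0.07, adjusted p = 2.39e-07) and RPL14B by 1.25 ± 0.12. Translation factor genes were called higher in 11 of 32 cases (6 without slide 1) and lower in 3, with only 3 higher with each spot alone. Of 68 mitochondrial ribosomal protein genes 19 were lower, at 27.9% near the share over all genes, and 3 were higher. Without slide 1, 5 were lower, and with the block 25 were lower and 10 higher.

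Carbon metabolism divided between isozymes and transporters. Of 21 genes of the hexose transporter list, which also holds the glucose sensors and their partners, 12 were lower and 4 higher. HXT4 read 1.70, 0.32 and 1.24 in Dctr1_Con and -1.87, -2.58 and -2.24 in CTR1D300 (-3.31 ± 0.29, adjusted p = 4.98e-06). HXT6 (-2.01 ± 0.31) and HXT7 (-2.29 ± 0.27), near-identical high-affinity transporter genes, HXT10 (-2.23 ± 0.14) and MTH1, which holds HXT genes down when glucose is low (-2.33 ± 0.36), fell. HXT2 rose from -2.15, -2.51 and -2.10 to -0.75, -0.28 and -0.38 (1.78 ± 0.19, adjusted p = 2.49e-05), while HXT3 was at -0.18 ± 0.18 (adjusted p = 0.41). HXT1, a low-affinity transporter, was at 0.75 ± 0.29 (adjusted p = 0.0488, with 1 spot only, and 0.283 without slide 1).

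In glycolysis and fermentation 13 of 31 genes fell (41.9%) and 6 rose (19.4%), against 30.6% and 24% of all genes. HXK1 (-1.89 ± 0.44) and GLK1 (-1.59 ± 0.33), which phosphorylate glucose, fell, and HXK2 less (-0.36 ± 0.09, adjusted p = 0.00543, then adjusted p = 0.0522 at -0.31 when slide 1 was left out). ENO1, one enolase, fell by 0.82 (SE 0.12) and ENO2, the other, rose by 0.61 ± 0.10. GPD1, glycerol-3-phosphate dehydrogenase, fell from 2.31, 1.85 and 1.93 to 1.06, 0.62 and 0.71 (-1.23 ± 0.24, adjusted p = 0.00138), while its isozyme GPD2 rose from -3.20, -3.84 and -3.61 to -2.22, -2.54 and -2.28 (1.20 ± 0.15, adjusted p = 7.94e-05). GPP1, the phosphatase of the next step to glycerol, rose by 1.27 ± 0.12. TDH1 fell by 0.77 (SE 0.16), TDH2 was at 0.64 ± 0.07 with 1 spot only, and TDH3 was at -0.13 ± 0.09 (adjusted p = 0.248).

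**Figure D4:**
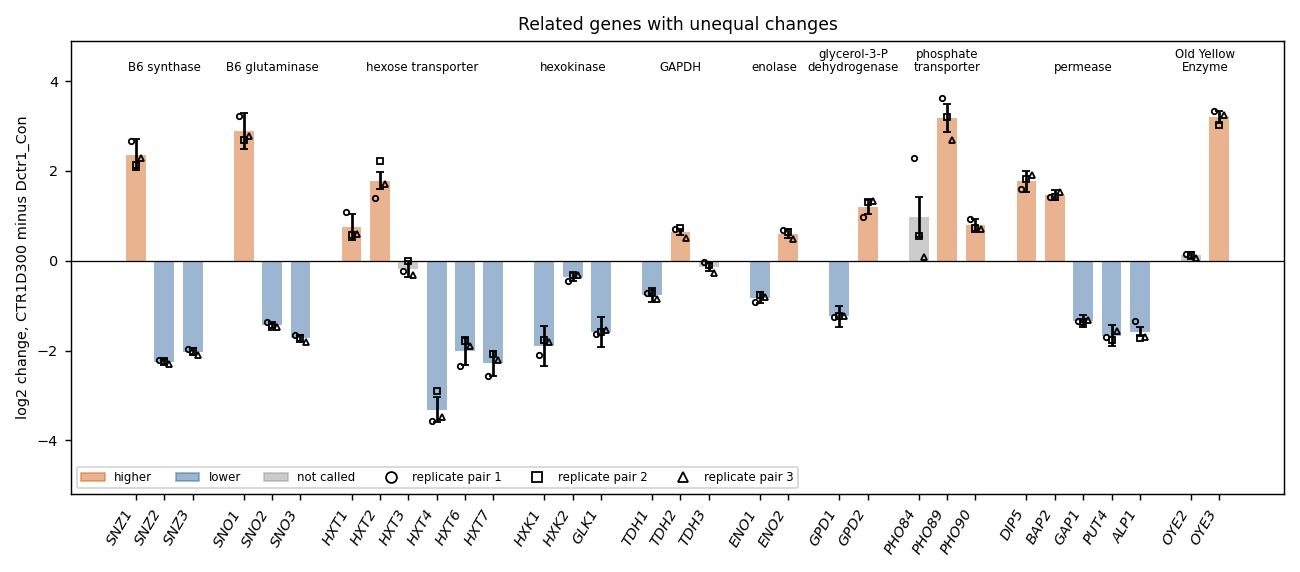
Bars are log2 changes (CTR1D300 minus Dctr1_Con) with SE, coloured by call, for 10 groups of related genes, and open symbols are the 3 replicate pairs. SNZ1 and SNO1, HXT2, ENO2, GPD2, PHO89 and OYE3 were higher, while SNZ2, SNZ3, SNO2, SNO3, HXT4, ENO1 and GPD1 were lower and OYE2 was not called.

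Genes of reserve carbohydrates and respiration fell. Of 12 glycogen genes 10 were lower, led by GAC1, a phosphatase subunit (-2.86 ± 0.48), and GLC3, the branching enzyme (-2.19 ± 0.33), and of 9 trehalose genes 8 were lower. GND2, the minor 6-phosphogluconate dehydrogenase, read 1.97, 1.60 and 1.46 against -1.0, -1.54 and -1.48 (-3.02 ± 0.19, adjusted p = 6.68e-07). In the TCA cycle and glyoxylate list 15 of 29 were lower, with KGD2 (-1.19 ± 0.09), CAT8, an activator of genes for non-fermentable carbon (-1.66 ± 0.21), and ADH2, the ethanol-consuming alcohol dehydrogenase (-1.71 ± 0.10). For the ATP synthase 13 of 17 were lower and none higher, with ATP16 at -0.85 ± 0.12 and its inhibitor INH1 at -0.85 ± 0.10. For respiratory complexes 15 of 27 were lower. COX5A, a subunit of the copper enzyme cytochrome oxidase, fell by 0.85 (SE 0.13), and COX9 of the same enzyme rose by 0.73 ± 0.07. Of 8 mitochondrially encoded genes 1, ATP6, was called (0.77 ± 0.14).

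Of 33 general stress genes 22 fell and none rose. GRE1 went from 0.41, 0.08 and -0.22 to -1.64, -2.07 and -1.77 (-1.92 ± 0.18, adjusted p = 9.49e-06). HSP26, a small heat shock protein, fell by 1.81 (SE 0.27). Heat shock chaperone genes were lower in 8 of 30 cases, at 26.7% near the share over all genes, and in 15 with the block, which called 2280 of all 6127 genes lower, with SSA1 at -1.18 ± 0.19, while SSB1, the ribosome-bound chaperone, rose by 0.45 ± 0.08. In the endoplasmic reticulum, 12 of 19 folding genes fell and none rose, with KAR2, the lumenal Hsp70, at -0.89 ± 0.06 and PDI1 at -0.66 ± 0.07. HAC1, whose mRNA encodes the activator of the unfolded protein response, was at 0.63 ± 0.29 (adjusted p = 0.0853, and 5.44e-05 with the block).

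Of 25 abundant cell wall genes 16 fell and 1 rose, with PIR3 at -1.46 ± 0.21 and SED1 at -1.26 ± 0.09. Of 24 fatty acid and phospholipid genes 17 fell and none rose, with CKI1, choline kinase, at -0.91 ± 0.08 and OPI3 at -0.72 ± 0.09. OLE1, the fatty acid desaturase, fell by 1.09 (SE 0.23). Of 21 genes of autophagy and vacuolar proteolysis 16 fell, among them the proteases PRB1 (-1.71 ± 0.17) and APE1 (-1.20 ± 0.13), and 1 rose. That 1 was ATG1, the kinase that starts autophagy, which went from -4.24, -4.14 and -4.22 to -2.73, -2.94 and -2.89 (1.35 ± 0.09, adjusted p = 1.08e-06). Of 34 proteasome genes 19 fell and 2 rose, led by RPN6 (-0.69 ± 0.07).

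Of 29 redox genes 12 fell (41.4%) and 8 rose (27.6%), against 30.6% and 24% of all genes. With each spot alone 10 fell and 7 rose. OYE3, an NADPH oxidoreductase of the Old Yellow Enzyme family, had the largest rise among genes above background in both groups, from -2.75, -2.98 and -2.99 to 0.59, 0.03 and 0.27 (3.20 ± 0.13, adjusted p = 3.16e-08), a 9.21-fold difference. Its relative OYE2 was at 0.12 and was not called. ATR1, an exporter of aminotriazole and boric acid, rose from -1.36, -0.82 and -1.07 to 1.12, 1.28 and 1.13 (2.26 ± 0.18, adjusted p = 3.11e-06), and GPX2 by 0.81 ± 0.10. The glutaredoxin genes GRX2 (-1.05 ± 0.15) and GRX1 (-0.87 ± 0.13) and SOD2, the mitochondrial superoxide dismutase (-0.87 ± 0.18), fell. In the retrograde and multidrug list 9 of 16 rose, with the exporter genes SNQ2 at 1.14 ± 0.06 and PDR5 at 0.82 ± 0.12, and 1 fell, TPO4, a polyamine exporter, at -0.95 ± 0.27.

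Of 49 genes of G1/S and DNA replication 40 were lower (36 with each spot alone) and 1 higher. PCL1 (-1.46 ± 0.16), CLN1 (-1.35 ± 0.13) and CLN2 (-1.13 ± 0.13), cyclins of G1, fell, as did CDC21, thymidylate synthase, from -0.88, -0.86 and -0.96 to -2.43, -2.22 and -2.36 (-1.44 ± 0.09, adjusted p = 4.69e-07). The 1 higher call, RFC4, rests on 1 spot. The helicase subunits were different: 1 of 7 genes of the MCM list, MCM2, was called, at -0.23 ± 0.08 with 1 spot only. All 11 histone genes were lower, 7 with each spot alone, from -0.36 for HHT2 to -1.06 for HHO1, the linker histone, and the paired core histone genes share sequence. The 11 genes of daughter cell separation were all lower with each spot alone. CTS1, chitinase, read 2.58, 2.41 and 2.28 against 1.15, 1.52 and 1.68 (-0.97 ± 0.18, adjusted p = 0.0011), and ASH1 fell by 0.92 (SE 0.11). Of 15 ribonucleotide reductase and DNA damage genes 10 fell and none rose, with RNR1 at -0.85 ± 0.17 and PHR1, photolyase, at -1.46 ± 0.12.

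Several of the largest changes belong to no list. SRL4 rose from -3.90, -3.69 and -3.65 to -0.98, -1.13 and -1.27 (2.62 ± 0.24, adjusted p = 6.53e-06), and BOP2, whose function is not known, from -4.08, -3.96 and -3.91 to -1.37, -1.20 and -1.18 (2.73 ± 0.13, adjusted p = 9.9e-08). TMT1, a methyltransferase of trans-aconitate, rose by 2.27 ± 0.09, YHK8, a presumed exporter, by 2.36 ± 0.21, and the open reading frames YGL024W by 2.58 ± 0.17, YKL070W by 2.54 ± 0.11 and YDL129W by 2.18 ± 0.21. CDA1, a chitin deacetylase of the spore wall, fell from -2.69, -2.79 and -2.68 to -6.01, -6.06 and -6.44 (-3.45 ± 0.15, adjusted p = 4.86e-08).

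The levels in WT_Con show where CTR1D300 stood against a strain with CTR1. These values are descriptions with no test, and only replicate 1 of WT_Con shared a slide with the deletion strain. THI4 was at 3.13 ± 0.15 (SD, n = 3) in WT_Con, so the CTR1D300 mean of -2.13 lay below both control groups, and the same held for THI5, at -2.15 in WT_Con and -3.76 in CTR1D300. BIO2 was at 2.66 in WT_Con and 2.64 in Dctr1_Con against -0.52 in CTR1D300, and LYS9 was at 4.16 and 4.41 against 1.98. Among genes that rose, SNZ1 was at 2.52 in WT_Con and 4.61 in CTR1D300, OYE3 at -3.04 and 0.30, and ILV3 at 3.51 and 4.59.

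The effect of CTR1D300 in the deletion strain was last set against that of full-length CTR1 in wild type, a comparison in which strain and construct change together and no arrays are shared. The construct effects differed for 2845 of 6127 genes (46.4%), 1209 of them higher with CTR1D300 (19.7%) and 1636 lower (26.7%). SNO1 was at -2.28 ± 0.40 with CTR1 and 2.90 ± 0.40 with CTR1D300, a difference of 5.18 ± 0.56 (adjusted p = 3.93e-05), and ILV3 was at -1.28 ± 0.17 and 1.24 ± 0.17. The thiamine fall had no counterpart of that size, since THI4 was at -0.27 ± 0.18 with CTR1 (adjusted p = 0.356) and differed by -6.43 ± 0.25. GRE1 rose by 1.34 ± 0.18 with CTR1 and PIR3 by 1.31 ± 0.21, and both fell with CTR1D300. Of 13 copper delivery genes the difference was called for 1 higher and 7 lower, among them CCC2 (-1.37 ± 0.11, adjusted p = 5.81e-06) and FET3 (-1.15 ± 0.09, adjusted p = 4.26e-06). RTA1, a gene linked to drug tolerance, was among those for which it was not called (1.25 ± 0.24 with CTR1D300, 1.83 ± 0.24 with CTR1, adjusted p of the difference = 0.18).

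**Figure D5:**
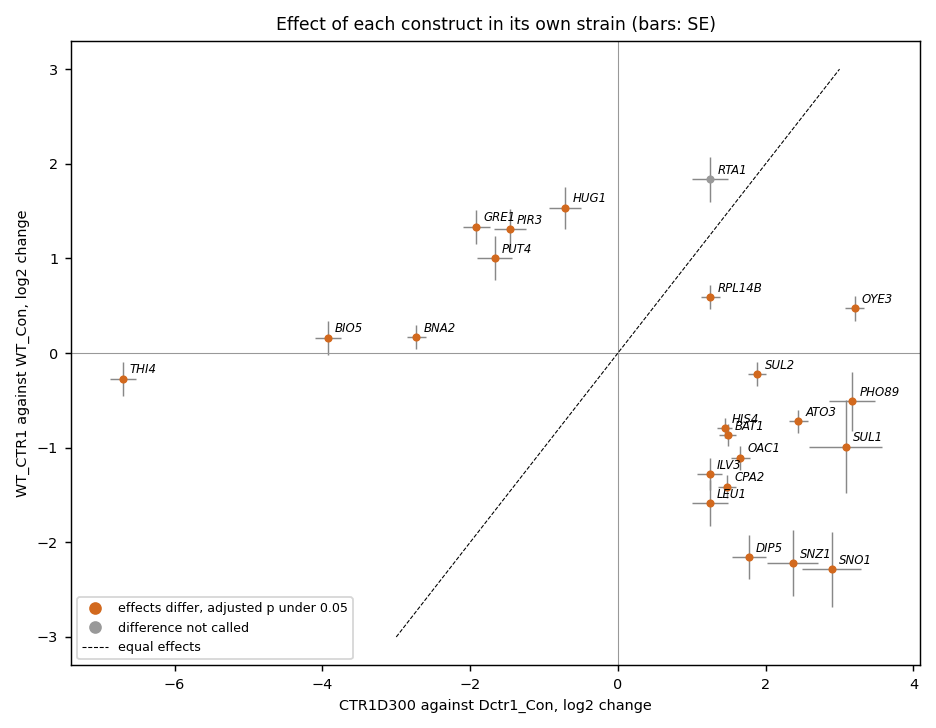
The horizontal axis is the log2 change with CTR1D300 in the deletion strain and the vertical axis that with full-length CTR1 in wild type, with SE on both. Orange genes differ between constructs at an adjusted p under 0.05. SNO1, SNZ1, DIP5 and the amino acid genes lie at the lower right, GRE1, PIR3, PUT4 and HUG1 at the upper left, and THI4 and BIO5 far left near 0 on the vertical axis.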

How the data were processed

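Total RNA (0.4 µg) of each culture was labelled with Cy3 and hybridised to 1 Agilent yeast array, per the labels' protocols. Intensities (processed signals) and background flags came from Agilent Feature Extraction 10.7.1.1, per the deposited file headers and the submitters' processing notes. The authors also deposited a matrix of log2 values. Log2 was taken of each spot's signal, and the log2 values of a probe's spots were averaged without outlier spots. Each array's 75th percentile of these averages over gene probes was then subtracted. Probes well above background on at least 3 of 12 arrays were kept (6155, with 101 removed), and the brightest probe stood for a gene. limma 3.58.1 in R 4.3.3 fitted all 4 groups (lmFit, eBayes, 8 residual degrees of freedom), with Benjamini-Hochberg adjustment. The fit was tried on simulated data with independent noise on each array. The simulation held no shared deviation of slide, replicate or column, so it cannot speak to those.

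Background-corrected (normexp) values used the median signals, since mean signals were not in the columns used here. Members and lists were chosen with earlier results of these data known. Named were the 15 largest rises and falls called with each spot and not overlapping, up to 5 called and 2 other members of a list, all copper genes and the markers. Not every gene that rule allows is printed. Same-numbered arrays deviated together (r of 0.679, 0.699 and 0.394), while the other pairs lay between -0.66 and 0.11. Same-numbered arrays also shared slide and slide row. Pairing by experiment and by place on the slides therefore cannot be told apart. Depth has no meaning for arrays, whose number limits the precision. P-values rest on the spread among the 3 arrays of a group, pooled over all 4 groups and moderated across genes. Except where the block is named, they do not use the pairing by replicate number. The RefSeq table was used for names and gene order alone, and no coordinates or sequences are given.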

Additional observations from a re-analysis of the deposited data

Results flagged for a closer look

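For these genes the effect of CTR1D300 in the deletion strain differed from that of full-length CTR1 in wild type, by limma's interaction term with adjusted p under 0.05. They are the 10 largest rises and 10 largest falls with CTR1D300 for which that held, with differences given as log2 values. The genes were picked by the change with CTR1D300, which is part of the difference tested, so their calls are no separate support. Over all 6127 genes the difference was called for 46.4%. Among the rises, SNO1 differed by 5.18 ± 0.56, SUL1 by 4.07 ± 0.69, YGL024W by 3.81 ± 0.25, SRL4 by 3.77 ± 0.33 and PHO89 by 3.68 ± 0.44, and in each of these the change with CTR1 was below 0. ATO3 differed by 3.16 ± 0.17, with a change of -0.72 with CTR1. YPR123C was fitted at 2.81 ± 0.42, which is not a measured size because 2 of its 3 Dctr1_Con arrays were at background. OYE3 differed by 2.73 ± 0.19, BOP2 by 2.54 ± 0.19 and YKL070W by 1.59 ± 0.16, and these 3 were above 0 with both constructs.

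Among the falls, THI4 differed by -6.43 ± 0.25 and the pyrimidine genes THI11, THI13, THI5 and THI12 by -3.38, -3.26, -3.32 and -3.20. THI73 differed by -3.41 ± 0.45 and BIO5 by -4.08 ± 0.25. LEU2 differed by -4.87 ± 0.36, CDA1 by -3.56 ± 0.21 and HXT4 by -3.52 ± 0.40. The constructs were tested in different strains, so construct and strain cannot be told apart in these differences.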

How the results depend on the processing

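The 3341 calls became 3089 with normexp background, 3350 with quantile normalisation, 2968 with the authors' matrix and 2596 without slide 1, and leaving out 1 array gave 2803 to 3242. With replicate number as a block there were 4078 calls, 2952 with each spot alone and 3673 for the difference between constructs. Calls with each spot alone were 1710 without slide 1 and 1882 to 2205 with 1 array left out. The share of higher calls was 43.9%, 50.7% with quantile normalisation and 49.7% with median centring. Of 229 called genes named in the text, 203 stayed called in 1 direction under every alternative with a test, and 226 kept their direction. AAD4, AAD14 and AGP3 were not among the genes followed through the alternatives, and no alternative reading is given here for HXT15. Among called genes the direction turned with a single spot for HHT2 (0.0747), MCM2 (0.0242) and RPL41B (-0.12). Among genes not called it turned and passed the threshold with a single spot for CYS3 (-0.21), MNT4 (-0.31) and ZRT1 (0.59), and with normexp for MNT4 (-0.16), while others near 0, such as ARO7 (-0.18 with a single spot), turned without a call. The cause was not tested. Of 65 list medians 60 kept their sign. Slide 1 alone has 1 array a group and gives no calls, and the block within the 6 arrays was not run for the difference between constructs, which needs all 4 groups.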
